A study of Mus musculus with 2 samples.

Results

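The H3K36me3 peaks described here are the 636 peaks, of 45575 in the deposited table of mouse primary keratinocytes (KCs), whose annotation begins with 5′ UTR. They made up 1.40% of all peaks (95% exact binomial interval 1.29 to 1.51, counting error only) and 2.33% of the 27272 peaks outside the promoter class. The class is set by position alone. The annotation tool puts a peak within 3000 bp of any transcription start site (TSS) in the promoter class before it looks for a 5′ UTR, so a member peak touches a 5′ UTR that lies away from every annotated TSS. Of the 2800 peaks that share at least 1 bp with an annotated 5′ UTR, the 636 members were 22.7% and the other 2164 were in the promoter class.

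Chromatin came from skin KCs of C57BL/6 mice that were 10 weeks old and carried the floxed Setd2 allele on both chromosomes (Setd2fl/fl). These are the floxed control animals of the study, with Setd2 intact. Epidermis was parted from dermis with dispase and the cells were freed with trypsin. The series holds 1 H3K36me3 ChIP library, which has the peak table, and 1 input library, which was not analysed here; the sequencing depth of both is unknown. With 1 library there is no replicate and no test, peaks and genes are not replicates of it, and every interval below covers counting error only. The labelled cell type was set beside marker genes: a peak lay on the gene body of 18 of 18 basal KC markers and 23 of 30 differentiated KC markers, and on 16 of 24 hair follicle markers, against 2 of 20 fibroblast, 3 of 15 endothelial, 6 of 22 immune cell and 2 of 14 melanocyte markers. Across all protein-coding genes the share with a peak on the body was 51.4%.

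H3K36me3 is laid down by SETD2, a methyltransferase that travels with elongating RNA polymerase II, and the mark is known to build up along transcribed gene bodies, more over later than over early parts of a gene. The 5′ UTR is the stretch of the mRNA before the start codon. In many mammalian genes it is split by an intron, so that some 5′ UTR bases, and often the start codon, lie in a later exon far from the promoter.

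To show what lies at these places, the genomic sequence at both ends of the 5′ UTR stretch is given for 6 genes whose member peak held the start codon and whose assigned gene was the one that owns the 5′ UTR. They are the 6 such peaks with the highest fold enrichment. In Zfp58 the exon after the intron end shown is all 5′ UTR, and the start codon lies in the next exon. The sequences come from the GRCm38 reference, which is the build of the peaks, and are written 5′ to 3′ on the strand of the gene. In the intron ends, the last 30 bases before the exon with the 5′ UTR, the capitals mark the AG of the splice acceptor.
Zfp58 intron end, chr13:67496212-67496241, minus strand: tctgatcgctcgctggctggttctactcAG
Eppk1 intron end, chr15:76112726-76112755, minus strand: ggactgactggctctttctgtcccctacAG
AI987944 intron end, chr7:41376873-41376902, minus strand: tttattttacacatgtatgggatattttAG
Tagln2 intron end, chr1:172505090-172505119, plus strand: agcgtgggcctggttatgtcctctccacAG
Zfp948 intron end, chr17:21583000-21583029, plus strand: caacattcagtattaattttacttttccAG
Zfp612 intron end, chr8:110083577-110083606, plus strand: ccttactttgccctctgcccctttacttAG

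In the coding starts, the 30 genomic bases from the start codon on, the capitals mark the start codon.
Zfp58 coding start, chr13:67494697-67494726, minus strand: ATGctgtcattctgggatgtggccattgat
Eppk1 coding start, chr15:76112650-76112679, minus strand: ATGaacggccaggcccctcctcatgatgtc
AI987944 coding start, chr7:41376837-41376866, minus strand: ATGacctatgatgatgtccatgtaaacttc
Tagln2 coding start, chr1:172505148-172505177, plus strand: ATGgccaacaggggaccttcctacggcctg
Zfp948 coding start, chr17:21583113-21583142, plus strand: ATGgctaaatctccagtaaacatgtccaag
Zfp612 coding start, chr8:110083750-110083779, plus strand: ATGctggagaactataggaacctggcctct

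All 12 stretches lay inside their H3K36me3 peaks. Over the whole class, AG stood right before the exon in 635 of the 635 members whose 5′ UTR exon follows an intron, and ATG stood at the first coding bases in 635 of 636. The exon with the 5′ UTR was exon 2 of its transcript in 404 members (63.5%), exon 3 in 148 (23.3%) and a later exon, up to exon 8, in 83 (13.1%). Only Tmbim1, a membrane protein of the TMBIM family, had its peak on exon 1: its 1149 bp were all 5′ UTR.

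The member peaks were broad and of moderate height. Their median width was 3693 bp (quartiles 1836 and 6793, range 248 to 31513), against 1590 bp for all other peaks. The median was 7153 bp for the promoter class peaks that touch a 5′ UTR, 2413 bp for the exon class, 2923 bp for the 3′ UTR class and 842 bp for the intron class. Peaks over 10000 bp were 65 of the 636 members (10.2%), against 10.1% of the other peaks. That pooled share mixed unlike classes: it was 20.1% in the promoter class, 11.4% in the 3′ UTR class, 5.86% in the exon class and 0.0334% in the intron class.

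Fold enrichment, the deposited ratio of ChIP signal to the background that the peak caller estimated, had a median of 3.09 in the members (95% interval 3.05 to 3.13, range 2.49 to 5.29), against 2.90 in all other peaks. The promoter class peaks that touch a 5′ UTR had a median of 3.31 and the exon class one of 2.96. A fold enrichment of at least 3 was reached by 391 of the 636 members (61.5%, interval 57.6 to 65.3), against 40% of all peaks (percentage called over the whole table). It was reached by 54.4% of the promoter class, 44.7% of the exon class, 53.9% of the 3′ UTR class and 17.9% of the intron class. A deposited P below 1e-05 was carried by 146 members (22.96%, interval 19.7 to 26.4), against 12.8% of all peaks, 22.2% of the promoter class and 9.01% of the exon class.

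**Figure D1:**
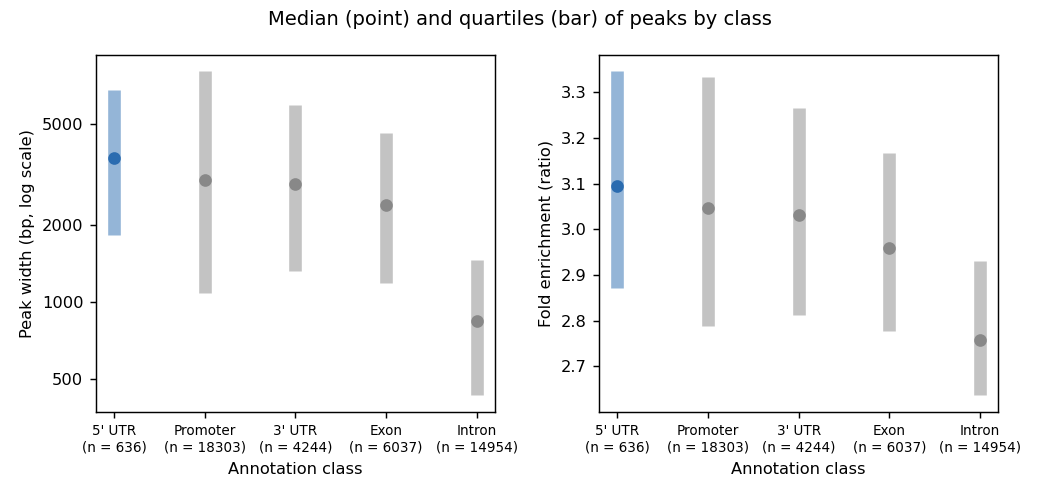
Width in bp (left, log axis) and fold enrichment as a ratio (right) of the peaks of 5 annotation classes, with the median as a point and the quartiles as a bar. The 5′ UTR class, in blue, has a median width of 3693 bp and a median fold enrichment of 3.09, both above the medians of the other 4 classes.

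Wider peaks had higher fold enrichment across the table, so members were also set beside other peaks of like width. Between 3000 and 10000 bp, where 308 members (48.4%) lay, the median fold enrichment was 3.19 in members (interval 3.13 to 3.23) and 3.12 in the other peaks. Between 1000 and 3000 bp it was 2.93 in 200 members (interval 2.87 to 2.99) and 2.85 in the other peaks. At 10000 bp and over, the members' median of 3.37 (interval 3.31 to 3.42) took in the other peaks' 3.38. Within a width range the members thus lay close to the rest, and 9.91% of members but 35.3% of other peaks were under 1000 bp.

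**Figure D2:**
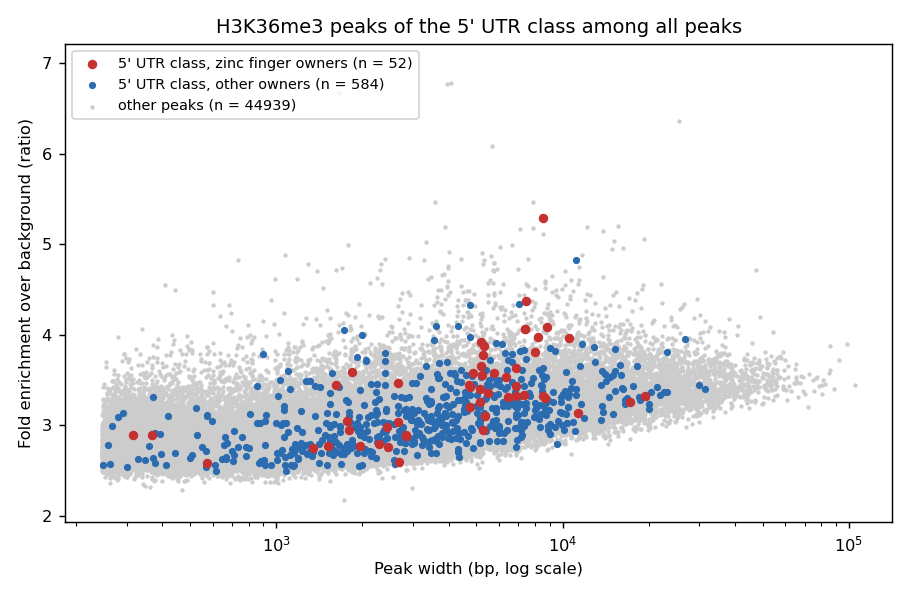
Fold enrichment (ratio) against peak width (bp, log axis) for each peak, with members owned by zinc finger genes in red, the other members in blue and all other peaks in grey. Members run through the middle of the cloud, from 248 to 31513 bp, and the highest of them is the Zfp58 peak at 5.29.

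Base composition was close to that of the rest. Median GC content was 43.9% in members and 44.1% in the other peaks, repeat-masked sequence made up 22.2% of a member and 22.8% of another peak, and CpG dinucleotides numbered 10.9 per 1000 bp in members and 9.79 in the other peaks.

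The name of the class describes little of a member's sequence. A median of 61 bp of each peak was 5′ UTR (range 1 to 1149 bp), which is 1.61% of its bases, and 275 members (43.2%) held under 50 bp. Coding bases took a median of 5.62%, while 89 members (14.0%) had none. Both kinds were counted over all transcripts, so a base could count as 5′ UTR and as coding. Exons of any kind took a median of 12.9%, and 584 members (91.8%) lay wholly on gene bodies. The start codon that follows the 5′ UTR was inside the peak in 491 members (77.2%, interval 73.7 to 80.4). These peaks had a median width of 4514 bp and a median fold enrichment of 3.14, against 2006 bp and 2.89 for the 145 that stopped short of it.

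Peaks leaned downstream from the exon start. The class rule favours this, because a peak that reached within 3000 bp of any TSS went to the promoter class. The median member ran 308 bp into the intron before the exon and 3219 bp beyond the exon start, and 534 of the 636 (84.0%) crossed the acceptor itself. The intron before the exon had a median length of 9823 bp (range 90 to 239917). From the TSS of the owning transcript to the exon, a median of 13.1% of bases lay inside any peak; from the exon to the end of the gene, the figure was 71.0%. The class rule bears on these figures too, since no member can cover bases within 3000 bp of a TSS. Cover was higher after the exon than before it in 605 members (95.1%), a count that the choice of peaks on the exon also favours. In 211 members (33.2%) no other peak lay between the TSS and the exon.

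Because the choice of peaks and the class rule fix part of the pattern, cover was also read whether or not a peak lay there. This was done around the exons of all protein-coding genes with 5′ UTR bases more than 3000 bp from every annotated TSS (a distal 5′ UTR). Of these genes, 3576 entered the profile. Their cover was 10.1% in the 500 bp centred 1250 bp before the exon start, 28.8% centred 250 bp after it and 35.0% centred 1250 bp after it, and it was still 25.6% in the last bin at 9750 bp. In the 575 owners of members in the same profile, cover was 19.2% at 1250 bp before the exon start and 94.7% at 250 bp after it, a value the rule fixes. At 9750 bp after the exon start it was 44.9% in the owners of members.

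**Figure D3:**
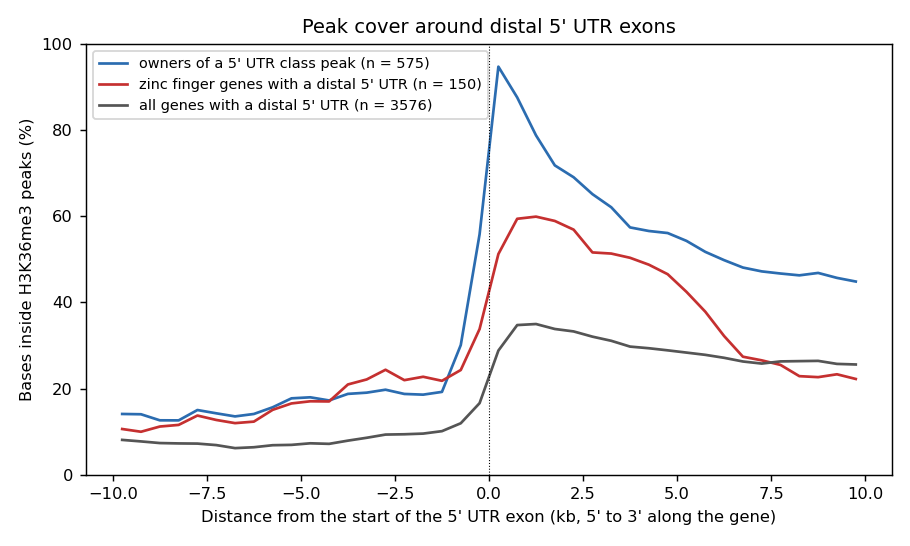
Percentage of bases inside H3K36me3 peaks in bins of 500 bp, by distance in kb from the start of the exon that holds the distal 5′ UTR, for owners of members (blue), zinc finger genes (red) and all genes with a distal 5′ UTR (grey). All 3 lines climb at the exon start, to 94.7% in owners, which the rule fixes, and to 59.9% and 35.0% in the groups not chosen by peaks.

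The deposited gene of a peak is the one with the nearest TSS, and it was not always the gene whose 5′ UTR lay in the peak, called the owner here. The 636 members were assigned to 588 genes and had 585 owners, all protein-coding, with 444 genes in both sets. The assigned gene was an owner for 476 members (74.8%, interval 71.3 to 78.2). For the other 160, the assigned gene was another protein-coding gene in 46, a processed pseudogene in 38, an unverified transcript model of the TEC type in 20, an antisense gene in 19, and a lincRNA or a miRNA gene in 7 each. In 83 of the 160, that gene lay inside the owner, and in 85 it was on the opposite strand. Ovol1, a transcription factor of epidermal differentiation, is such a case: its peak of 7066 bp at 4.34-fold on chr19:5546766-5553831 was assigned to Gm31166. Baz2a, the large subunit of a nucleolar remodelling complex, had a member of 23106 bp that was assigned to Rbms2.

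Distance to the nearest TSS had a median of 7784 bp (quartiles 4708 and 13842), and 209 members (32.9%) lay upstream of the TSS they were assigned to. Just inside the edge of the class were, among others, the peaks of Tmbim1 at 3023 bp, Azin1 at 3049 bp and Mapk14 at 3053 bp. Just outside it, in the promoter class, were peaks on 5′ UTRs of Ten1 at 2986 bp, Timm9 at 2974 bp, Rnf141 at 2965 bp and Slc2a1 at 2956 bp. The edge parts peaks of the same kind: the 3 named inside had fold enrichments of 2.69, 3.63 and 3.35 in the order given, and the 4 outside of 2.82, 2.78, 3.06 and 2.92. Measured to the TSS of the nearest owning transcript, the median distance was 13677 bp. The members farthest from any TSS were on Zhx2, a homeobox repressor (67092 bp), Foxo3, a forkhead factor that AKT holds out of the nucleus (60202 bp), and Vopp1 (58825 bp). Both Zhx2 and Vopp1 peaks were assigned to a neighbour, Derl1 and Lancl2.

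Among the 10 members of highest fold enrichment, 5 were on genes of the Zfp series, which encode DNA-binding proteins built from repeated zinc fingers. Zfp58 led with 5.29-fold over 8543 bp (chr13:67488145-67496687), from just before exon 2 to the end of the gene. The others were Zfp146 at 4.38-fold over 7430 bp, Zfp948 at 4.09-fold over 8827 bp, Zfp942 at 4.07-fold over 7405 bp and Zfp612 at 4.06-fold over 7376 bp. These 5 peaks were alike in width, between 7376 and 8827 bp. Zfp146 was assigned to Gm10988, which is not the owner.

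The other 5 of the top 10 were outside the Zfp series, although Ovol1, described above, is a zinc finger protein too. Eppk1, which encodes epiplakin, a plakin that binds keratin filaments, had a peak of 11106 bp at 4.83-fold on chr15:76105942-76117047. Its coding sequence begins in exon 2 and takes up 10374 bp of that exon, and the peak ran from the intron deep into it. Tagln2, an actin-binding protein, had 4.09-fold over 4305 bp. AI987944, which the RefSeq annotation leaves uncharacterised, had 4.33-fold over 4762 bp. The series and lists here go by symbol, so whether AI987944 is a zinc finger gene was not tested. Rnf43, a ubiquitin ligase that removes Wnt receptors from the cell surface, had 4.10-fold over 3622 bp. In the transcript used, the exon under the peak is 5′ UTR and the start codon lay outside the peak. Coding bases of any transcript made up 3.40% of the peak, the same share as 5′ UTR bases. Whether these are the same bases, coding in another transcript, was not examined.

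**Figure D4:**
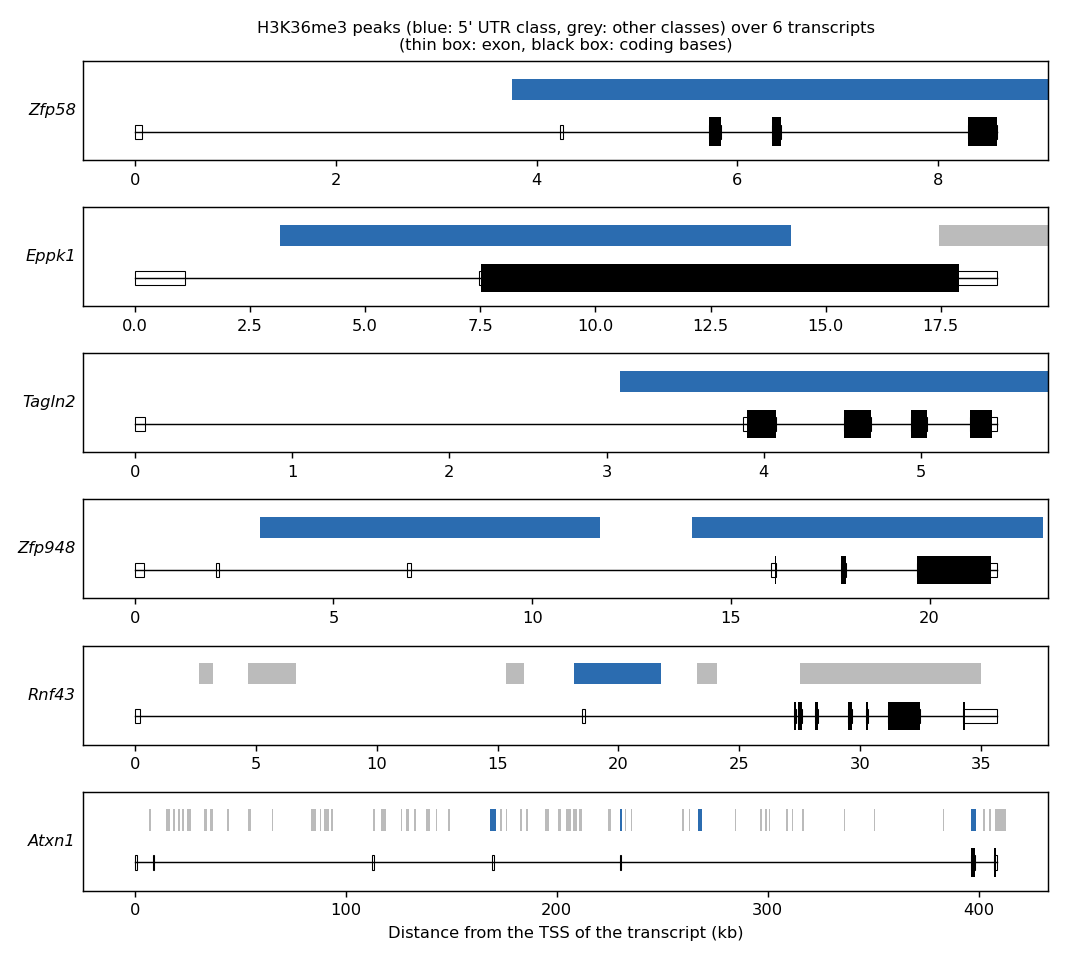
Peaks (blue, 5′ UTR class; grey, other classes) above the exons of 1 transcript each of 6 owners, by distance in kb from that transcript's TSS; thin boxes are exons and black boxes coding bases. The peaks of Zfp58 and Tagln2 begin before exon 2 and run past the transcript end, and Atxn1 has 4 members among 56 peaks.

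The widest members covered most of the gene after the exon. Prpsap2, a partner of the enzymes that make phosphoribosyl pyrophosphate, had 31513 bp, with 10.1% cover before the exon and 100% after it. Luc7l2, a splicing factor, had 29924 bp, Atp6v1a, the catalytic subunit of the proton-pumping V-ATPase, 26804 bp, Hdhd2 23181 bp, and Usf3, a bHLH protein, 22592 bp. Their fold enrichments, with that of Baz2a, lay between 3.37 and 3.95. Thus none of the 6 widest was among the 10 highest.

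Most owners had 1 member (530 of 585), 51 had 2, and 4 had more. Zfp644 and Atxn1, the gene of the polyglutamine protein ataxin-1, had 4 each, and Kif13b, a kinesin motor, and Tulp4, a tubby-like protein, had 3 each. In these genes more than 1 exon with 5′ UTR bases lay under a member peak, though not every such exon did. On Atxn1, whose members were at 3.58, 3.15, 3.11 and 2.71-fold, 56 peaks covered 16.5% of the body, and only the member at 3.58-fold held the start codon. On Kif13b, by contrast, 9 peaks covered 63.3% of the body. Over all members, the owner's body had a median length of 56688 bp, a median cover of 39.5% and a median of 6 peaks.

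To read the families against what could have been in the class, genes were counted only where they have a distal 5′ UTR. These are 3580 of 21938 protein-coding genes, and 16.3% of them owned a member (585). Another 427 had their distal 5′ UTR only under a promoter class peak, which brought those under any peak to 1012 (28.3%). Of the 2162 with a peak somewhere on the body, 27.1% owned a member. The counts below are descriptions of 1 library over 46 gene lists, and many genes of a family lie next to each other.

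Zinc finger genes of the Zfp, Zkscan, Zscan and Zbtb series owned members in 47 of 150 genes (31.3%, interval 24.02 to 39.4), against the background of 16.3%, and in 38.8% of those with a peak on the body, against 27.1%. Their 52 peaks had a median fold enrichment of 3.33 and a median width of 5208 bp, against 3.07 and 3624 bp in the other 584 members. A fold enrichment of at least 3 was found in 38 of the 52 (73.1%) and in 60.4% of the other members, and a P below 1e-05 in 24 (46.2%) and 20.9%. Between 3000 and 10000 bp of width the medians were 3.55 in the zinc finger members and 3.14 in the others, but between 1000 and 3000 bp they were 2.89 and 2.94.

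The zinc finger owners were also built differently. Their members held 20.5% coding bases in the median, against 5.30% in the other members, their genes were 22431 bp long against 61323 bp, and the owning transcripts had 4 exons against 8. Median GC content was 41.0% in their members and 44.0% in the others. Of the 52 peaks, 12 were on chromosome 17 and 11 on chromosome 7, where such genes stand in clusters of related copies. How reads that fit several copies were treated is not stated in the sources used here, so values on near-identical copies are uncertain. Without chromosomes 7, 13 and 17, 22 of 93 zinc finger genes (23.7%, interval 15.5 to 33.6) owned a member, against 15.7% of all genes there, a share that the interval takes in. The higher enrichment was seen outside the class too: of 933 other peaks on zinc finger genes 50.7% reached 3-fold, against 40.4% of peaks on other gene bodies.

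Regulators of small GTPases, the proteins that switch these GTPases on or off, owned members in 19 of 51 genes (37.3%, interval 24.1 to 51.9), or 46.3% of those with a peak on the body. Unlike the zinc finger genes these were long, with a median of 114392 bp over the 51, and their 20 peaks had a median of 2.97-fold. Of the 20, 8 reached 3-fold, against 61.5% of all members and 40% of all peaks. Sipa1l3, a Rap-GTPase activator, was highest at 3.98-fold over 4732 bp, followed by Dennd2c, a Rab exchange factor, at 3.56-fold and Arhgap35, a GTPase-activating protein, at 3.41-fold.

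Other gene regulators followed, with intervals that took in the background of 16.3%. Factors of the bHLH, bZIP and nuclear receptor families owned members in 10 of 33 genes (30.3%, interval 15.6 to 48.7). They included Bach1, a haem-sensing repressor, at 3.99-fold over 1997 bp, Vdr, the vitamin D receptor, at 3.30-fold over 16791 bp, Rara, a retinoic acid receptor, at 3.14-fold over 3020 bp, and the partners Clock, at 3.26-fold, and Arntl, at 2.72-fold, of the circadian clock. Chromatin remodellers and acetylation factors gave 8 of 27, RNA-binding and splicing proteins 9 of 37, and chromatin methylation enzymes 4 of 20, with Tet2, which oxidises methylcytosine, highest at 3.52-fold. Ubiquitin ligases and deubiquitinases gave 25 of 114 (21.9%, interval 14.7 to 30.6), among them Rnf43, Itch at 3.90-fold over 11705 bp, and Cul2 at 3.70-fold over 12920 bp.

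In 3 lists the interval lay below the background. Solute carriers owned members in 4 of 64 genes (6.25%, interval 1.73 to 15.2), the Tmem and Ccdc series in 5 of 78 (6.41%, interval 2.11 to 14.3) and gene models with Gm or Rik names in 11 of 201 (5.47%, interval 2.76 to 9.58). Membrane trafficking proteins gave 9 of 38 (23.7%, interval 11.4 to 40.2), which takes in the background. Integrins, laminins and collagens gave 1 of 22 (interval 0.115 to 22.8), with Itgb5 at 3.06-fold, and growth factor receptors with their ligands gave 0 of 11, which allows a share of up to 28.5%. For the 3 lists below the background, a peak somewhere on the body was found on 34 of the 64 solute carriers, 49 of the 78 Tmem and Ccdc genes and 62 of the 201 Gm and Rik models. Among those, the share of owners was 11.8% in solute carriers, 10.2% in the Tmem and Ccdc series and 17.7% in the Gm and Rik models, against 27.1% overall. These shares rest on 4, 5 and 11 owners. No interval was taken for them, so whether they differ from 27.1% was not tested.

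**Figure D5:**
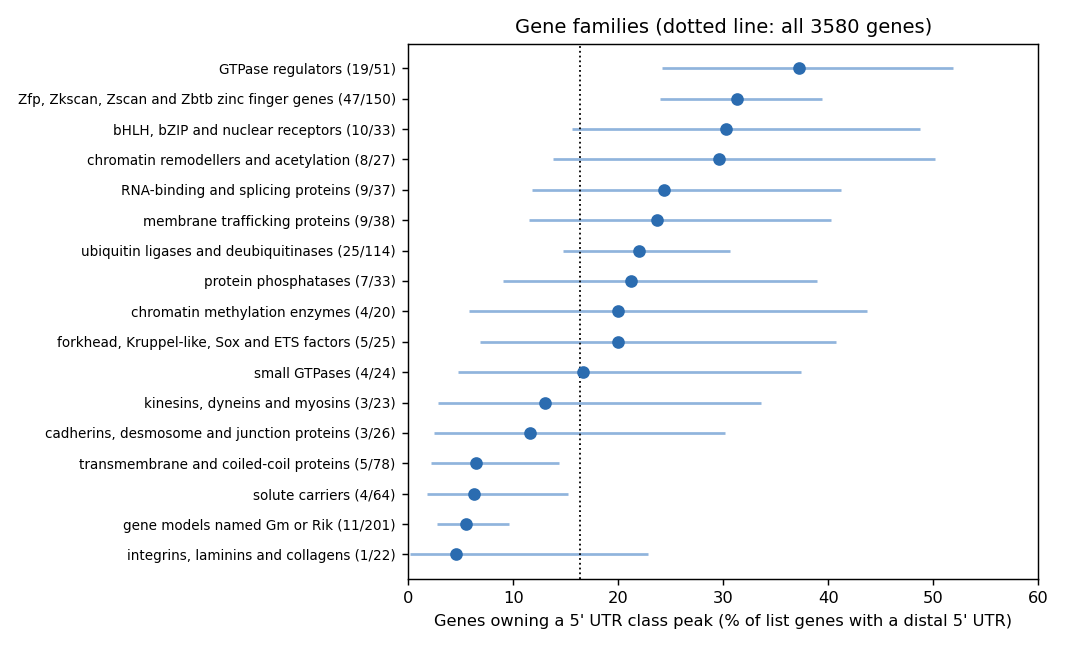
Share of genes owning a 5′ UTR class peak, in % of the genes of each list that have a distal 5′ UTR, with 95% exact binomial intervals (counting error only), for lists with at least 20 such genes; the numbers give owners and genes. The dotted line is the 16.3% over all 3580 genes, and the intervals of GTPase regulators and zinc finger genes lie above it while those of 3 lists lie below.

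Signalling pathways of the skin had few genes that could be in the class, and their shares are set beside the background of 16.3%. Of TGF-beta and BMP signalling, 4 of 7 owned a member (57.1%, interval 18.4 to 90.1). All 7 had a peak on the body, and the interval takes in the 27.1% of all such genes. The owners were the receptor Bmpr1a at 3.61-fold over 4419 bp and the co-receptor Tgfbr3 at 2.86-fold over 3616 bp. With them were the signal transducers Smad2 at 3.22-fold over 6795 bp and Smad1 at 2.98-fold over 7035 bp. Of PI3K, AKT and mTOR signalling, 3 of 15 owned a member (20%, interval 4.33 to 48.1). They were Pik3cb, a catalytic subunit of PI3K, at 3.58-fold over 4174 bp, Foxo3 at 3.19-fold over 6950 bp, and Inpp4b, a lipid phosphatase, at 2.87-fold over 663 bp. Foxo3 was marked over 73.5% of the gene after the exon, Inpp4b over 4.56%. Actin and focal adhesion genes gave 4 of 12 (33.3%, interval 9.92 to 65.1), led by the kinase Src at 3.36-fold. Wnt signalling gave 2 of 6 (33.3%, interval 4.33 to 77.7), with Rnf43 and the co-receptor Lrp6 at 3.23-fold. EGF receptor and MAPK signalling gave 2 of 8 (25%, interval 3.19 to 65.1), the feedback inhibitor Errfi1 at 3.53-fold and the ubiquitin ligase Cbl at 3.33-fold. Apart from that of TGF-beta and BMP signalling, which lay above it, these intervals took in the background of 16.3%.

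NF-kappaB signalling gave 0 of 6 and the enzymes and readers of H3K36 methylation 0 of 7, although 26 of 26 and 28 of 29 genes of these lists had a peak on the body. Most of their genes have no distal 5′ UTR. Where they have one, it lay under a peak of another class in 2 of the 6 and 3 of the 7, against 28.3% of all such genes under a peak of any class. With 6 and 7 genes a share of up to 45.9% and 41.0% could not be told from 0. Likewise 0 of 2 basal KC markers, 1 of 2 differentiated KC markers (Ovol1) and 1 of 3 hair follicle markers (Foxn1) owned a member. The Foxn1 peak was at 2.90-fold over 3065 bp. Fibroblast markers gave 0 of 4, and endothelial, immune cell and melanocyte markers gave 0 of 2 each. The share over all genes with a distal 5′ UTR was 16.3%, and lists this small cannot be told from it.

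Members were on all autosomes and X. They made up between 0.906% of the peaks of chromosome 9 and 1.96% of those of chromosome 17 among the autosomes. Chromosome X had 2 members among 1029 peaks (0.194%), and chromosome Y had 0 among 24.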

How the data were processed

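Single-end reads were trimmed by the authors (Cutadapt, Trimmomatic) and placed on GRCm38 by Bowtie2 2.2.6. Peaks came from MACS2 2.1.1 at a stated P cut-off of 0.01 (the lowest values in the deposited table were a −log10 P of 2.76 and a −log10 q of 1.31, so it was cut more strictly than the stated limit), and their classes from ChIPseeker. The ChIPseeker version and the use of the input as control are not stated in the sources used here. The deposited table gives per peak a fold enrichment (a ratio to local background), a −log10 P-value and a −log10 q-value, its position and width in bp and other annotation columns of the authors, namely the class, the gene and the distance to its TSS. The labels and the methods differ on the time of fixation.

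Peaks were joined to GENCODE vM21 on GRCm38 with bedtools 2.31.1 (at least 1 bp), and the class order applied to its transcripts gave all 636 members. Where several transcripts of an owner touched the peak, 1 was used for exon and intron values, and some models are partial. Sequences were read with pysam 0.24.0. Python 3.11.15, pandas 2.3.3, NumPy 2.4.6, SciPy 1.17.1 and matplotlib 3.10.9 were used. Shares carry exact binomial (Clopper-Pearson) and medians order-statistic 95% intervals; the methods were tested on simulated data. Depth is unknown.

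The members and the 46 gene lists were chosen with earlier results of these data known. Symbol patterns of the lists were corrected after the table had been opened, to drop symbols that matched by accident. Named genes are the owners of the 10 highest, 6 widest, 3 nearest and 3 farthest members, the owners with the most members, up to 4 of highest fold enrichment per list, and 6 for the sequences. The other genes at the class edge show the threshold only. A few items that the rules name are not reported here.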

Additional observations from a re-analysis of the deposited data

How the results depend on the processing

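Using only protein-coding transcripts changed no value beyond its interval (11 of 11 values), and counting owners in place of assigned genes gave 585 genes. With a P below 1e-05, 146 members on 146 assigned genes were left, with a median width of 5935.5 bp, a median fold enrichment of 3.56, a fold enrichment of at least 3 in 100%, the start codon in 91.1%, 1.16% of bases in 5′ UTR, and 11.03% of distal 5′ UTR genes under a peak. With a fold enrichment of at least 3 the values were 391 members, 372 genes, 5184 bp, 3.29, 85.2% with the start codon, 1.23% in 5′ UTR and 21.4% under a peak. With at least 50 bp of 5′ UTR they were 361 members, 340 genes, 68.1% with the start codon, 3.50% in 5′ UTR and 16.1% under a peak. The first 2 settings keep high peaks and the third keeps long 5′ UTR overlaps, so these shifts follow in part from their construction. The distance to the TSS was 13677 bp when taken to the owning transcript.

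For the share of zinc finger genes that own a member, other settings were tried, all chosen after seeing the data. The share was 31.3% with protein-coding transcripts only (16.3% of all genes with a distal 5′ UTR). At a fold enrichment of at least 3 it was 24.7% (10.4% of all). Both lay within the interval of the main value. Outside that interval were 16% at a P below 1e-05 (4.11% of all) and 20% with at least 50 bp (9.64% of all). So was the 23.7% without chromosomes 7, 13 and 17 (interval 15.5 to 33.6, 15.7% of all). In total 22 values stayed within the interval or count limit and 24 did not. No paired analysis was possible because only 1 of the 2 libraries has a peak table. Depth, unknown here, limits which weak peaks could be called.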

Other observations

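The first coding exon was at most 9 bp long in 19 of the 584 members with other owners (3.25%, interval 1.97 to 5.03). It was so in 0 of the 52 zinc finger members, which allows a share of up to 6.85%. No share over all genes with a distal 5′ UTR was taken, so whether these shares are unusual was not tested. In Map3k2, a MAP kinase kinase kinase, the first coding exon had 4 coding bases. The 5′ UTR exon under its peak, exon 2, followed an intron of 28350 bp, and the peak of 2077 bp (2.94-fold) held the start codon. In Itgb5, an integrin subunit, the first coding exon had 3 coding bases, the length of the start codon, and a peak of 13572 bp held the start codon. These genes were chosen after their values had been seen.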
